A study of Mus musculus with 189 samples.

Results

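Of 95 single cells sorted as basophil-mast cell progenitors (BMCPs) from the mouse peritoneal cavity, 91 were kept and divided by their transcript of granzyme B. The sides were thus chosen by a measured value, the Gzmb count of each cell, and Gzmb itself is not a result. A total of 60 cells held Gzmb at 100 CPM or more (CPM, counts scaled to 1000000 reads on endogenous genes) and are called Gzmb-high, and 31 cells lay under 100 CPM and are called Gzmb-low. A cell was kept with at least 100000 endogenous reads and at least 1000 CPM of Cpa3, the gene of mast cell carboxypeptidase A3. The 3 Gzmb-low cells nearest the threshold had 27.9, 10.3 and 10.2 CPM of Gzmb, and the 3 nearest Gzmb-high cells had 542.7, 948 and 1595 CPM, so no kept cell lay between 27.9 and 542.7 CPM.

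The series profiled 189 peritoneal cells, the 95 BMCPs and 94 mature mast cells, from 4 female C57BL/6 mice, with no treatment or altered allele named. All cells were gated as Live Lin- c-Kit+ FcεRI+, with high integrin β7 and low side scatter for BMCPs, and low integrin β7 and high side scatter for mature mast cells. Age is not given in the sources used here, and the labels assign no cell to a mouse. Each side was therefore 1 pooled sample without replicates, no test was made, and every difference below lacks a replicate check.

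Mast cells can descend from bone marrow progenitors that travel in the blood, enter some tissues with the help of the integrin α4β7, and mature there. Maturing mast cells fill their granules with chymases, tryptases, carboxypeptidase A3, histamine and heparin. Basophils are related blood granulocytes with a protease of their own, Mcpt8, and granzyme B is a serine protease best known from cytotoxic lymphocytes.

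The 60 Gzmb-high cells held a median of 1273122.5 endogenous reads (344022 to 2091665) and the 31 Gzmb-low cells 1233201 (477525 to 1988661). No cells had identical counts. Gzmb-high BMCP number 55 carried 38126 ERCC spike-in reads, or 24.7 endogenous reads per ERCC read, and Gzmb-low BMCP number 40 had a granule read share of 2.65%, and both stood apart from their sides. The column headers fell into 2 blocks of unstated meaning, with 33 Gzmb-high and 13 Gzmb-low cells in the first and 27 and 18 in the second. BMCPs 6 and 93 were left out for too few reads, and BMCPs 46 and 80 for Cpa3 at 113 and 160.4 CPM.

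Pooled profiles differed widely between the sides. Reads were summed over the cells of a side, given as CPM with exact Poisson 95% intervals in brackets, and compared as log2 of Gzmb-high CPM + 1 over Gzmb-low CPM + 1. The Poisson intervals cover counting of reads only, and reads are amplified copies, since no molecular identifiers were used. They do not cover spread between cells or mice. Intervals of shares of cells treat cells of unlabelled mice as independent draws. Of 10525 genes at 5 CPM or more in either side, 28.8% were at least 2-fold higher in Gzmb-high cells and 16.2% at least 2-fold higher in Gzmb-low cells. These shares were 16.8% and 7.10% when the 2-fold difference also had to hold without any 1 cell. The median log2 ratio of all 10525 genes was 0.32, and it was 0.08 under TMM scaling, 0.09 with granule genes left out of the totals and -0.45 under ERCC scaling (-0.31 without BMCPs 40 and 55). Gene ratios below are read beside that median, and in summed counts fewer expressing cells and less RNA per cell cannot be told apart, so shares of cells are given too.

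**Figure D1:**
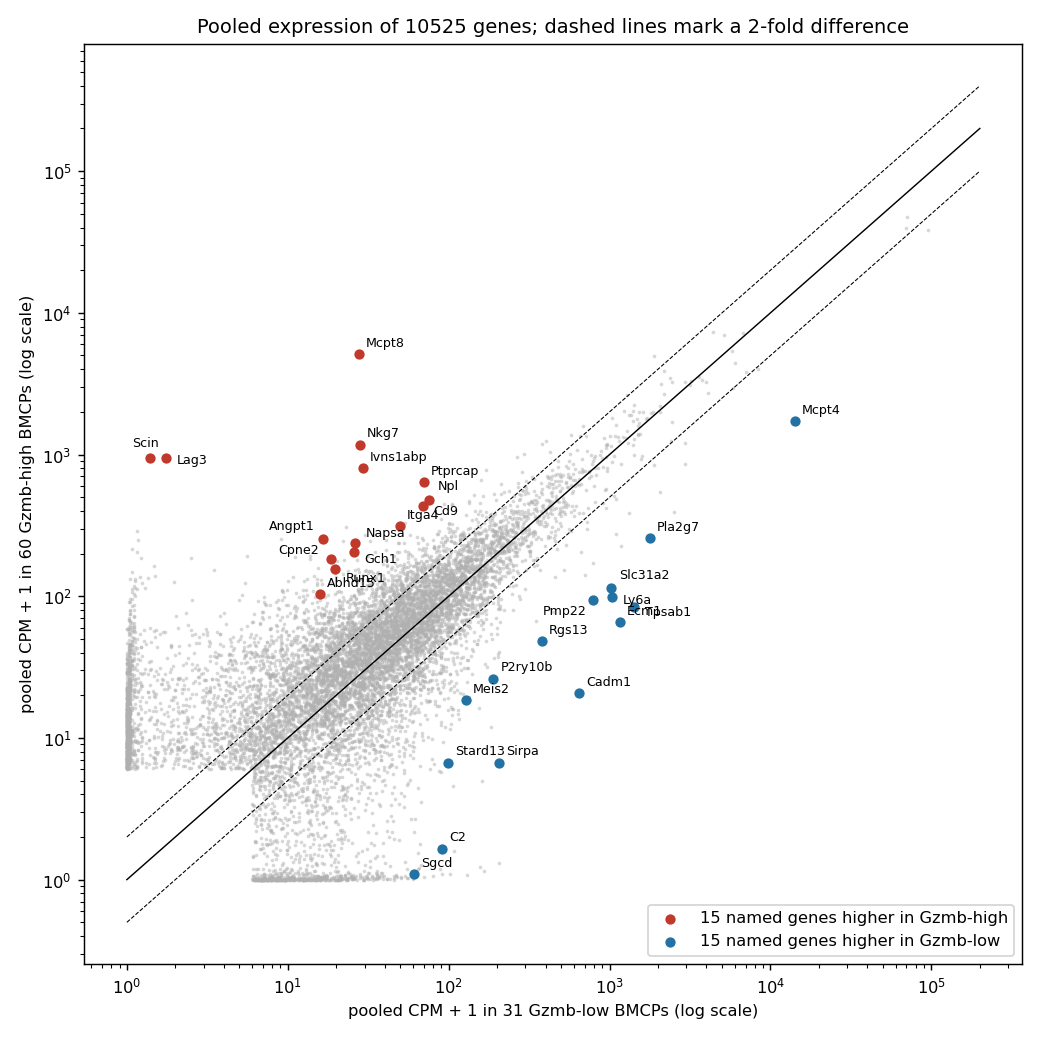
Pooled CPM + 1 of 10525 genes in 31 Gzmb-low BMCPs (horizontal, log scale) and 60 Gzmb-high BMCPs (vertical, log scale), with the 2-fold lines dashed. The 15 named genes of each side lie well past those lines, and Scin and Lag3 lie at the left edge with under 1 CPM in Gzmb-low cells.

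Gzmb-high cells carried a set of genes that was low or nearly absent in Gzmb-low cells. By rule, the 15 genes with the largest ratios were named among genes at 50 CPM or more in the higher side. A gene also needed 10 or more reads in at least 50% of that side's cells. Its ratio had to stay past 2-fold without the cell of that side holding most reads of the gene. The 15 genes were Scin, Lag3, Mcpt8, Nkg7, Ivns1abp, Angpt1, Cpne2, Ptprcap, Napsa, Gch1, Runx1, Abhd15, Npl, Itga4 and Cd9. A Gzmb-high cell had a median of 9 of these 15 genes at 100 CPM or more, a Gzmb-low cell 1 and a mature mast cell 2. Since the genes were chosen for this difference in the same cells, the count only describes the choice.

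Scin (ENSMUSG00000002565, minus strand of chromosome 12 from 40059769 to 40134228, GRCm38) encodes scinderin, a calcium-dependent actin-severing protein. Its lowest, median and highest values were 0, 680.1 and 6508 CPM in Gzmb-high cells and 0, 0 and 3.74 CPM in Gzmb-low cells. Scin reached 100 CPM in 44 of 60 Gzmb-high cells (73.3%, 60.3 to 83.9) and in 0 of 31 Gzmb-low cells (0%, 0 to 11.2), so the sides overlapped only through Gzmb-high cells without it. The pooled level was 946 CPM (939 to 953) against 0.397 CPM (0.227 to 0.645), a log2 ratio of 9.40.

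Lag3 (ENSMUSG00000030124, minus strand of chromosome 6 from 124904361 to 124911705) encodes an inhibitory receptor of activated lymphocytes. It spanned 0, 771 and 4235 CPM (lowest, median, highest) in Gzmb-high cells and 0, 0.648 and 3.29 CPM in Gzmb-low cells. At 100 CPM it was found in 39 of 60 Gzmb-high cells, in 0 of 31 Gzmb-low cells and in 1 of 94 mature mast cells. The pooled log2 ratio was 9.07, from 938 against 0.744 CPM. Nkg7 (ENSMUSG00000004612, plus strand of chromosome 7 from 43437073 to 43438249), which encodes a membrane protein of cytotoxic granules, had 0, 667 and 5664 CPM in Gzmb-high and 0, 0.942 and 301 CPM in Gzmb-low cells. It reached 100 CPM in 39 and 3 cells, and the pooled log2 ratio was 5.39. Here 36 Gzmb-high cells lay above every Gzmb-low cell.

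Mcpt8 (ENSMUSG00000022157, minus strand of chromosome 14 from 56082166 to 56085273) encodes the basophil granule protease. Gzmb-high cells split widely for it, with 0.573, 1074 and 36263 CPM at the lowest, median and highest, and Gzmb-low cells had 0, 4.71 and 448 CPM. It reached 100 CPM in 37 of 60 Gzmb-high cells (61.7%, 48.2 to 73.9) and 2 of 31 Gzmb-low cells (6.45%, 0.791 to 21.4), a pooled log2 ratio of 7.54. Without Gzmb-low BMCP number 27, which held most of that side's reads, the ratio was 8.93. The Nkg7 ratio was likewise 6.03 without Gzmb-low BMCP number 1.

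The other genes of the set had lower levels. Ivns1abp, an actin- and influenza NS1-binding protein, had 806 against 28.2 pooled CPM and reached 100 CPM in 43 and 2 cells. Ptprcap, a partner of the CD45 phosphatase, had 641 against 69 CPM (48 and 8 cells). Npl, an enzyme that splits sialic acid, had 480.5 against 74.6 CPM (34 and 8 cells). Of all the 15, these and the tetraspanin Cd9 (41 and 5 cells) stood with Scin, Lag3, Mcpt8 and Nkg7 as the genes at 100 CPM in more than 50% of Gzmb-high cells. Angpt1, a secreted vascular growth factor, had 252 against 15.5 CPM, and Gch1, which begins tetrahydrobiopterin synthesis, had 205 against 24.6 CPM. Runx1, a transcription factor of blood cell formation, had 0, 8.89 and 1214 CPM in Gzmb-high cells and 0, 0 and 264 CPM in Gzmb-low cells, with 21 and 3 cells at 100 CPM. The log2 ratio was 2.98 for Runx1, 3.19 for the aspartic protease gene Napsa, 3.30 for the copine Cpne2 and 2.72 for the hydrolase-family gene Abhd15. A single Gzmb-low cell held many of that side's reads, and without it the ratio was 6.06 in place of 4.79 for Ivns1abp (BMCP 31), 5.13 in place of 3.93 for Angpt1 (BMCP 17) and 3.84 in place of 2.65 for Cd9 (BMCP 88). The same held for Napsa at 4.06 (BMCP 4), Cpne2 at 4.01 (BMCP 72), Abhd15 at 3.51 (BMCP 88), Runx1 at 3.71 (BMCP 81) and Gch1 at 3.60 (BMCP 87). Ptprcap overlaps Coro1b, Abhd15 overlaps Taok1 and Itga4 overlaps Cerkl, and since the strand setting of the counts is not given in the sources used here, reads of such pairs cannot be told apart.

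Promoter sequence is shown for 3 of the genes higher in Gzmb-high cells and for Mcpt4, higher in Gzmb-low cells, because Runx1 was among the named genes. Sequences are from the RefSeq promoter table on GRCm38.p6, read 5′ to 3′ on the gene's strand, ending before the gene start of both RefSeq and GENCODE. Capitals mark the core letters of RUNX motifs, TGTGGT, and on the other strand their reverse complement, which reads ACCACA.
Scin, minus strand, chr12:40134229-40134478: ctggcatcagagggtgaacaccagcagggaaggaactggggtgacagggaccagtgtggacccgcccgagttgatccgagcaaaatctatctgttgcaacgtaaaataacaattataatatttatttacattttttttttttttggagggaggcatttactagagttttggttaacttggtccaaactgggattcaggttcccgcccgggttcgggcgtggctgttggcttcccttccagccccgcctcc
Nkg7, plus strand, chr7:43436888-43437072: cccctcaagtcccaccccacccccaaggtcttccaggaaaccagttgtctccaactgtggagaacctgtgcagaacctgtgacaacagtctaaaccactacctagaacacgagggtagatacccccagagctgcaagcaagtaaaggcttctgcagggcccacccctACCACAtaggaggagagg
Mcpt8, minus strand, chr14:56085274-56085447: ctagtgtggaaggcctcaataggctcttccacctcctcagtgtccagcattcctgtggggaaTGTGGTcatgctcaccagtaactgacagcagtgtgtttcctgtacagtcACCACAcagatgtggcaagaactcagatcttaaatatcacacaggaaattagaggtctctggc
Mcpt4, minus strand, chr14:56062314-56062560: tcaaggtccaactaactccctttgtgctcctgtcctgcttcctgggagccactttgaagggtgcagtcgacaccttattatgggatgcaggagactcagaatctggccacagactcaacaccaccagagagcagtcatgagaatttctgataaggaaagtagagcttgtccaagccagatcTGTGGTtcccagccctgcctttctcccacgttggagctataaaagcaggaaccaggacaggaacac
The letters lay 83 bases before the RefSeq start of Nkg7, 188 and 139 bases before that of Mcpt8 and 69 bases before that of Mcpt4, and were not in the Scin window. The windows of Hdc and Mrgprb1, also searched and not shown, held none, so 3 of 6 windows held the letters. Of 32536 windows of the 250 bases before a start, 13.96% held them, so a match is a description only. The letters AGATAA, the only form of the GATA motif searched, on either strand (9.97% of windows), were in none of the 6 windows. Other forms were not searched, such as the TGATAA in the printed Mcpt4 sequence, so absence of AGATAA is not absence of GATA motifs. Also in none of the 6 windows were CATGTG on either strand and, as the other E-box searched, CACGTG (together 17.7%).

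Gzmb-low cells carried another set, shared with mature mast cells. The 15 genes named by the same rule were Sgcd, C2, Cadm1, Sirpa, Ecm1, Tpsab1, Stard13, Ly6a, Slc31a2, Pmp22, Mcpt4, Rgs13, P2ry10b, Meis2 and Pla2g7. A Gzmb-low cell had a median of 10 of them at 100 CPM or more, a mature mast cell 10 and a Gzmb-high cell 1. At least 8 were found in 27 of 31 Gzmb-low cells and in 0 of 60 Gzmb-high cells, a separation that the choice of the genes on these cells fixes. All 30 named genes kept a 2-fold difference in the same direction within each block of columns and under all 15 alternatives computed for them. These genes were chosen for large ratios in the same cells. The rule already asked for 2-fold without the cell with most reads, and a changed CPM minimum does not alter a ratio. Such settings could not fail, so this is a description only.

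Mcpt4 (ENSMUSG00000061068, minus strand of chromosome 14 from 56059629 to 56062313) encodes a chymase of connective tissue mast cells. It spanned 13.2, 26.5 and 15848 CPM (lowest, median, highest) in Gzmb-high cells and 24.4, 14294 and 46355 CPM in Gzmb-low cells, with 22.4, 25503 and 42234 CPM in mature mast cells. At 100 CPM it was found in 12 of 60 Gzmb-high cells (20.0%, 10.8 to 32.3) and 26 of 31 Gzmb-low cells (83.9%, 66.3 to 94.5). The ranges overlapped through these 12 Gzmb-high cells and the Gzmb-low cells without it, and the pooled log2 ratio was -3.04.

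Cadm1 (ENSMUSG00000032076, plus strand of chromosome 9 from 47530173 to 47857637), an adhesion molecule that binds mast cells to nerves and fibroblasts, had 0, 0.853 and 522 CPM in Gzmb-high and 0.698, 511 and 1522 CPM in Gzmb-low cells. It reached 100 CPM in 2 of 60 and 27 of 31 cells, and the pooled log2 ratio was -4.96. Ecm1, an extracellular matrix protein, had 0, 1.28 and 886 CPM in Gzmb-high and 0, 1119.7 and 2811 CPM in Gzmb-low cells, a ratio of -4.15. Both genes were thus near 0 in the middle Gzmb-high cell and well above 100 CPM in the middle Gzmb-low cell.

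Pla2g7, which degrades platelet-activating factor, had 0, 3.64 and 2041 CPM in Gzmb-high and 1.40, 1765 and 3937 CPM in Gzmb-low cells, a log2 ratio of -2.78. The copper transporter gene Slc31a2, the myelin protein gene Pmp22 and the stem cell antigen gene Ly6a followed with ratios of -3.15, -3.08 and -3.40. These 3 reached 100 CPM in 27, 26 and 23 of 31 Gzmb-low cells and in 11, 8 and 9 of 60 Gzmb-high cells. Rgs13, which restrains IgE receptor signalling, had a ratio of -2.97, and Sirpa, a receptor for CD47, -4.94. Sgcd, a sarcoglycan, and the complement gene C2 had the lowest Gzmb-high levels, at 0.0917 and 0.655 CPM against 59.6 and 89.6 CPM in Gzmb-low cells. P2ry10b had a ratio of -2.85, and of -6.87 without Gzmb-high BMCP number 21, which held nearly all of that side's reads. The ratio was -3.89 for Stard13, a lipid transfer domain protein, and -2.80 for the homeobox gene Meis2. Without the Gzmb-high cell that held most or many of that side's reads, ratios were -6.32 for Cadm1 (BMCP 25), -6.39 for Sirpa (BMCP 2), -3.87 for Rgs13 (BMCP 22), -4.50 for Stard13 (BMCP 29) and -3.52 for Meis2 (BMCP 44). Without Gzmb-low BMCP number 27 the Stard13 ratio was -3.28.

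**Figure D2:**
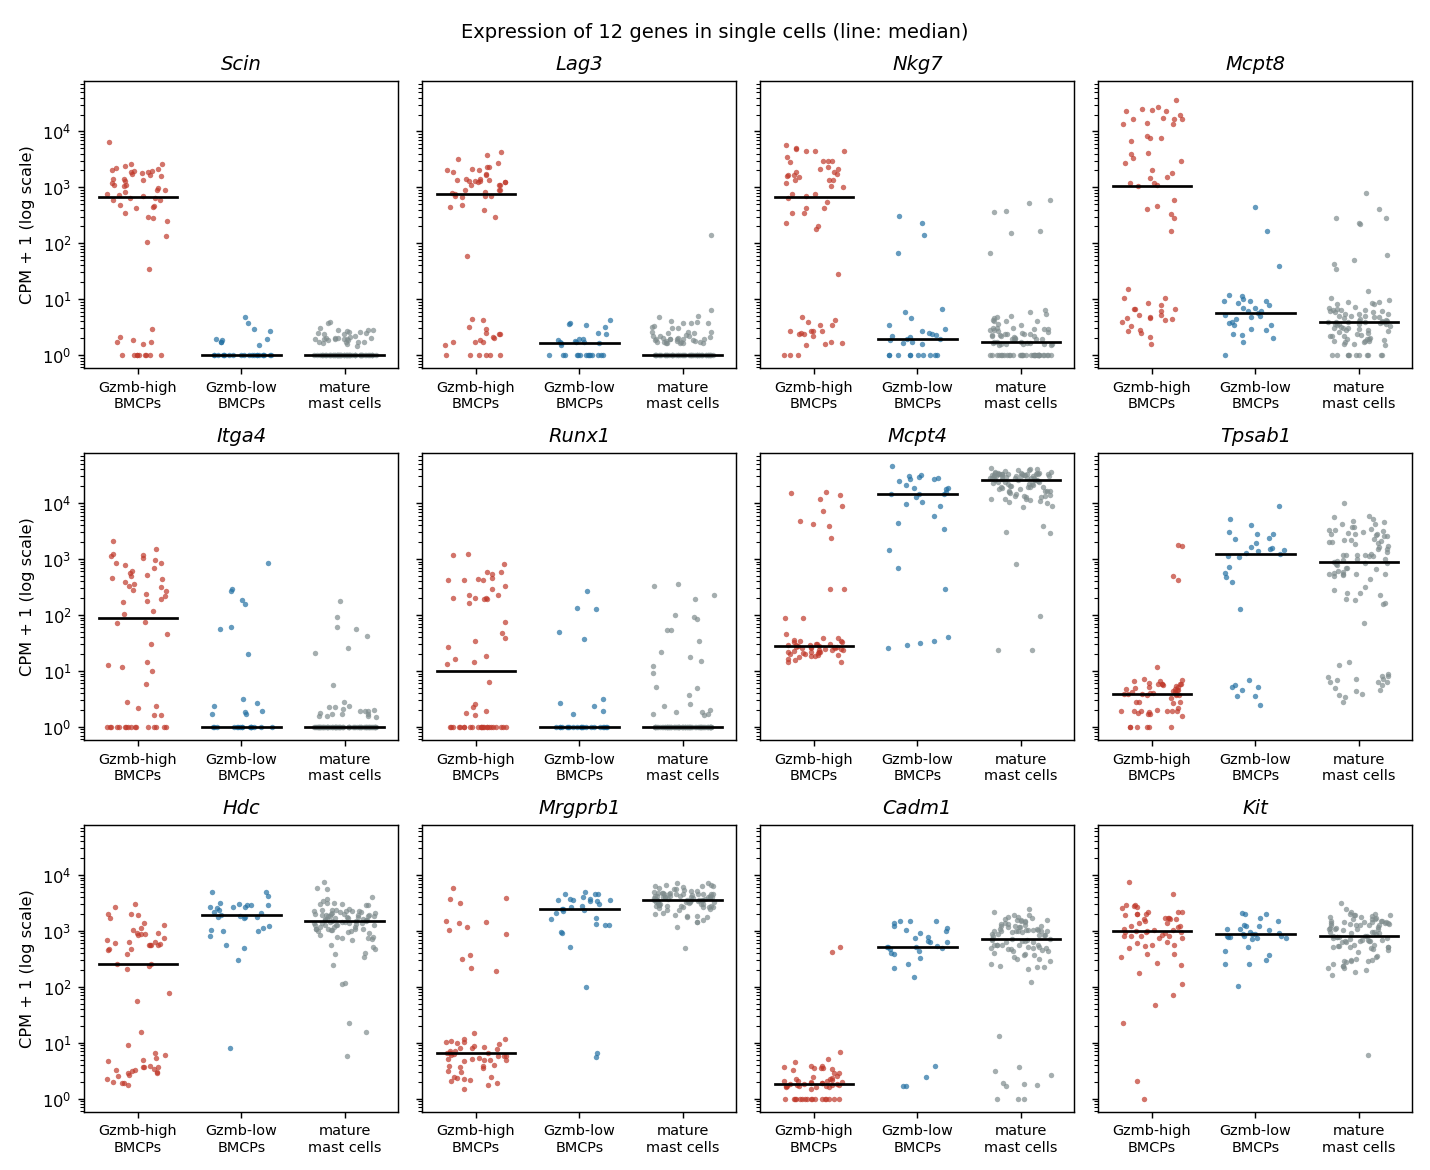
CPM + 1 (log scale) of 12 genes in each of 60 Gzmb-high BMCPs, 31 Gzmb-low BMCPs and 94 mature mast cells, 1 point a cell, with the median as a line. Scin and Lag3 are at 100 CPM or more only in Gzmb-high cells apart from 1 mature mast cell, Mcpt4, Tpsab1, Mrgprb1 and Cadm1 lie high in most Gzmb-low and mature cells, and Kit overlaps in all 3 groups.

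Granule proteases differed gene by gene. Of 22 listed proteases other than Gzmb, 14 passed 5 CPM in either side, 2 were at least 2-fold higher in Gzmb-high cells (background 28.8%) and 5 in Gzmb-low cells (background 16.2%), with a median log2 ratio of -0.57. Passing the minimum through the side where a gene is high makes it differ, so these counts describe the listed genes only. Beside Mcpt4, the tryptase gene Tpsab1 had a log2 ratio of -4.07, with 0, 2.91 and 1765 CPM in Gzmb-high and 1.41, 1241 and 8925 CPM in Gzmb-low cells. It reached 100 CPM in 4 of 60 and 23 of 31 cells, and the ratio was -5.14 without Gzmb-high BMCP number 45, which held most of that side's reads.

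The most abundant proteases were present on both sides. Cma1, the main chymase, had 2700.3, 38155 and 80429 CPM in Gzmb-high and 6792, 89738 and 140476 CPM in Gzmb-low cells, a ratio of -1.32, and 23 Gzmb-low cells lay above every Gzmb-high cell. Tpsb2, another tryptase, had 39579 against 69154 pooled CPM (-0.81), and Cpa3, which the rule used as a minimum, had 47249 against 70641 CPM (-0.58). Prss34 and cathepsin G (Ctsg) had ratios of 0.13 and -0.26, and single cells moved the Prss34 ratio between -0.18 and 0.71. In the other direction Ctsc, whose product cathepsin C activates granule serine proteases, had 0, 579 and 3284 CPM in Gzmb-high and 0, 1.68 and 817 CPM in Gzmb-low cells, a ratio of 2.18. Reads shared between near-identical tryptase or chymase genes cannot be assigned from these counts, so Tpsb2 and Tpsab1, like the Mcpt genes, are uncertain to that extent.

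Summed over 9 granule genes, the share of endogenous reads was 3.66%, 12.97% and 24.2% at the lowest, median and highest Gzmb-high cell and 2.65%, 27.8% and 33.6% in Gzmb-low cells. The pooled shares were 13.5% and 26.1%, and 28.1% in mature mast cells. The lowest Gzmb-low value was that of BMCP number 40. Gzmb-high cells also had a median of 2395 genes detected after thinning to 100000 reads, against 2642 in Gzmb-low cells, and 497 endogenous reads per ERCC read, against 770. Their part in the gene differences was not tested.

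**Figure D3:**
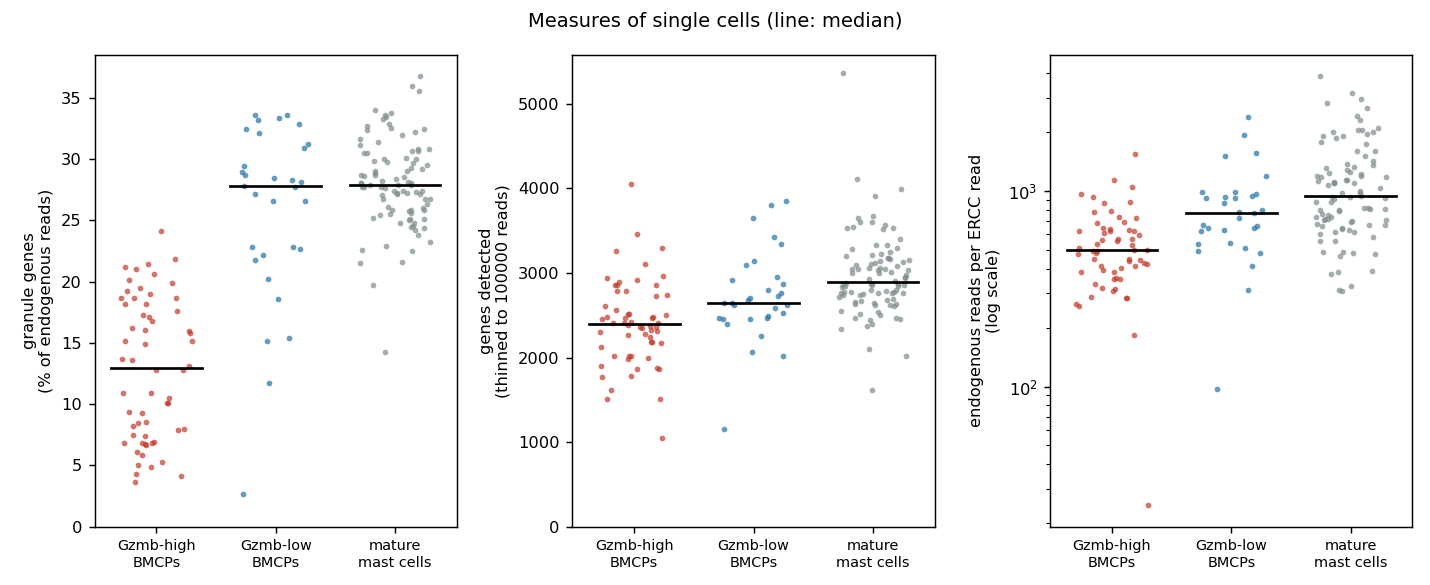
Share of endogenous reads on 9 granule genes (%), genes detected after thinning to 100000 reads, and endogenous reads per ERCC read (log scale) in single cells, with medians as lines. Gzmb-high cells have medians of 12.97%, 2395 genes and 497, Gzmb-low cells 27.8%, 2642 genes and 770, and BMCP 55 is the lowest point of the right panel.

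Of 9 listed genes of histamine and serotonin, 8 were measured, with a list median of -2.06. At least 2-fold higher were 6 in Gzmb-low and 1 in Gzmb-high cells (all genes: 16.2% and 28.8%). Hdc, which makes histamine, spanned 0.777, 257 and 3064 CPM in Gzmb-high and 6.98, 1939 and 4929 CPM in Gzmb-low cells, a log2 ratio of -1.93. It reached 100 CPM in 33 of 60 and 30 of 31 cells. Tph1, the first enzyme of serotonin synthesis, had 0.893, 8.20 and 4790.4 CPM and 6.98, 2959 and 7138 CPM, a ratio of -1.77 with 28 and 30 cells at 100 CPM. Most Gzmb-low cells thus held both genes, while Gzmb-high cells divided into cells with and without each. The serotonin transporter Slc6a4 and the degrading enzyme Maob had ratios of -2.19 and -2.30, whereas Slc18a2, which loads the amines into granules, had 879 against 1040.1 CPM (-0.24). Slc22a3, a low-affinity amine transporter, was found only in Gzmb-high cells at 100 CPM (15 of 60, against 0 of 31 and 0 of 94 mature mast cells).

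Of 20 listed and measured genes of serglycin and heparin synthesis, 6 were 2-fold higher in Gzmb-high and 3 in Gzmb-low cells, shares near those of all genes (28.8% and 16.2%), and the median ratio was -0.04. The granule proteoglycan core Srgn had 5350.5 and 5736 CPM, and Ndst2, the sulfotransferase of mast cell heparin, 1284 and 1410.0 CPM. Hs3st1, which adds the sulfate of the antithrombin site, had 509 against 163 CPM (1.64), and Hs2st1 had 53.4 against 198 CPM (-1.87). The Hs3st1 difference was under 2-fold with ERCC scaling and in the first block alone.

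Receptors that define the mast cell gate differed by less than 2-fold. Kit spanned 0, 984 and 7431 CPM in Gzmb-high and 102, 884 and 2076 CPM in Gzmb-low cells, and pooled levels of 1307 and 917 CPM gave a log2 ratio of 0.51. Chains of the IgE receptor had ratios of -0.59 for Fcer1a, 0.23 for Ms4a2 and 0.05 for Fcer1g, none past 2-fold. Of 19 measured genes of IgE signalling (median 0.23), 2 were 2-fold higher in Gzmb-high and 3 in Gzmb-low cells (all genes: 28.8% and 16.2%). Inpp5d, the phosphatase SHIP-1 that limits this signalling, had a ratio of 1.22 (under 2-fold with TMM or ERCC scaling or with granule genes left out of the totals), and Plcg2, a phospholipase of the pathway, -2.45. Gzmb-low BMCP number 40 held most of that side's Plcg2 reads, and without it the ratio was -1.35. The difference was under 2-fold without the cells at 10 to 1000 CPM of Gzmb.

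Of 25 listed cytokine receptors, 18 were measured, 4 were 2-fold higher in Gzmb-high and 2 in Gzmb-low cells, no larger shares than over all genes (28.8% and 16.2%), with a median of 0.51. Csf2rb and Csf2rb2, both β chains of interleukin 3 receptors, had 457 against 156 CPM (1.55) and 329 against 52.9 CPM (2.62). Reads common to this close pair cannot be told apart, and the Csf2rb difference was under 2-fold with ERCC scaling and in the second block. Il6ra, the interleukin 6 receptor, reached 100 CPM in 0 of 60 Gzmb-high and 8 of 31 Gzmb-low cells, with pooled levels of 0.197 and 87 CPM (-6.20). The interleukin 33 receptor Il1rl1 and the common γ chain Il2rg had ratios of -0.20 and 0.03.

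Mrgpr receptors, which answer peptides and drugs, also split. Mrgprb1 spanned 0.512, 5.62 and 5812 CPM in Gzmb-high and 4.68, 2467 and 5022 CPM in Gzmb-low cells, with 14 of 60 and 28 of 31 cells at 100 CPM and a log2 ratio of -2.68. Mrgprb2, the receptor of many small cationic drugs, had 0.586, 1499 and 5543 CPM and 235, 1072 and 5028 CPM, a ratio of 0.38, and was at 100 CPM in 40 and 31 cells. Of 6 measured members of this family, 1 was 2-fold higher in Gzmb-high and 2 in Gzmb-low cells (all genes: 28.8% and 16.2%). The family's close paralogs make single members uncertain.

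Of 19 genes listed with the integrins, 12 were measured (median 0.81), and Emb among them is not an integrin chain. At least 2-fold higher were 5, Emb included, in Gzmb-high cells and 2 in Gzmb-low cells (all genes: 28.8% and 16.2%). Emb had a log2 ratio of 1.44 and was under 2-fold with ERCC scaling and in the first block. Itgb7, whose protein set the gate, spanned 1.06, 1188 and 6519 CPM and 1.40, 1414 and 5148 CPM and had a log2 ratio of 0.08. Its α partner Itga4 (ENSMUSG00000027009, plus strand of chromosome 2 from 79255426 to 79333123) spanned 0, 88.7 and 2093 CPM in Gzmb-high and 0, 0 and 837 CPM in Gzmb-low cells, with 30 of 60 (50.0%, 36.8 to 63.2) and 5 of 31 cells (16.1%, 5.45 to 33.7) at 100 CPM. The Itga4 ratio was 2.65, so of the 2 chains of α4β7 the α chain transcript was past 2-fold and the β chain transcript was not. Itga5, a fibronectin receptor chain, had 128 against 29.9 CPM (2.07), and Itga9 and Itgb1 had ratios of -3.45 and -1.46. The Itga5 ratio was 2.79 without Gzmb-low BMCP number 17 and the Itga9 ratio -4.68 without Gzmb-high BMCP number 79, and Itgb1 was under 2-fold in the first block.

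Receptors for homing and chemoattractants had the highest list median. Of 23 listed, 13 were measured (median 4.09), 9 were 2-fold higher in Gzmb-high cells and 1 in Gzmb-low cells (all genes: 28.8% and 16.2%). Without any 1 cell, 8 and 1 were so (all genes: 16.8% and 7.10%). The 5 receptors described next each reached 100 CPM in fewer than 50% of Gzmb-high cells. The chemokine receptor gene Ccr1 spanned 0, 0.268 and 1564 CPM in Gzmb-high cells and at most 0.842 CPM in Gzmb-low cells, with 19 of 60 (31.7%, 20.3 to 45) and 0 of 31 cells (0%, 0 to 11.2) at 100 CPM. S1pr4, a sphingosine phosphate receptor, was at 100 CPM in 14 Gzmb-high cells and Ccr2, the CCL2 receptor, in 8, and both had 0 Gzmb-low cells at that level. Ltb4r1, the leukotriene B4 receptor, and Cx3cr1, the fractalkine receptor, were at 100 CPM in 19 and 16 Gzmb-high cells and in 1 Gzmb-low cell each. Cx3cr1 overlaps other annotated genes. That Gzmb-low cell was number 40 for Ltb4r1 and number 83 for Cx3cr1, and without it the ratio was 7.69 in place of 4.80 and 7.38 in place of 4.09. S1pr2, another sphingosine phosphate receptor, went the other way at -2.33 (-3.11 without Gzmb-high BMCP number 33), and Selplg, the ligand of P-selectin, had 1012 against 569 CPM (0.83).

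Within the Gzmb-high cells the number of these genes per cell varied. Of 6 genes, chosen after their values were seen (Ccr1, S1pr4, Ccr2, Ltb4r1, Cx3cr1 and the progenitor gene Plac8), 21 Gzmb-high cells had 0 at 100 CPM, 20 had 1 or 2 and 19 had 3 or more. The median granule read share of these groups was 17.6%, 14.4% and 6.82%. Among Gzmb-low cells 29 had 0, 2 had 1 or 2 and 0 had 3 or more, and among mature mast cells the numbers were 87, 7 and 0.

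The 5 factors Gata2, Gata1, Mitf, Tal1 and Spi1, known from the mast cell lineage, differed by less than 2-fold. Gata2 had 1606 against 1094 CPM (0.55), Gata1 had a ratio of 0.05, Mitf 0.23, Tal1 0.16 and Spi1 -0.20. Of 36 measured of 46 listed, 11 were 2-fold higher in Gzmb-high and 4 in Gzmb-low cells (28.8% and 16.2% over all genes). Without any 1 cell, 9 and 1 were so (16.8% and 7.10% over all genes). The list median was 0.58. Beside Runx1, Maf spanned 0, 1.47 and 1263 CPM in Gzmb-high and 0, 0 and 65 CPM in Gzmb-low cells, with 20 of 60 and 0 of 31 cells at 100 CPM and a ratio of 5.46. Runx2, Tcf4 and Myc, at 4.29, 3.83 and 3.44, were at 100 CPM in 4, 5 and 7 Gzmb-high cells. Single Gzmb-low cells moved these ratios to 6.99 for Maf (BMCP 17), 4.93 for Runx2 (BMCP 50), 5.40 for Tcf4 (BMCP 17), 4.81 for Myc (BMCP 7) and 0.67 for Gata1 (BMCP 88). Single Gzmb-high cells moved them to 3.47 for Runx2 (BMCP 76) and 3.10 for Tcf4 (BMCP 42), and Myc was under 2-fold with no Cpa3 minimum. Stat5a, which relays Kit and cytokine signals, had 124 against 46.6 CPM (1.39), under 2-fold with ERCC scaling.

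Of stem and progenitor genes, 13 of 24 listed were measured, with a median of 0.88. In Gzmb-high cells 6 were 2-fold higher, and in Gzmb-low cells 1, Ly6a (all genes: 28.8% and 16.2%). Plac8, a gene of early myeloid progenitors, was at 100 CPM in 22 of 60 Gzmb-high cells (36.7%, 24.6 to 50.1) and 0 of 31 Gzmb-low cells, at 248 against 0.174 pooled CPM. Cd34, a marker of progenitors and of mouse mast cells, spanned 0, 225 and 2704 CPM and 0, 41.9 and 822 CPM, a ratio of 0.88. Gcnt2 and Adgrl4, from the same list, were at 100 CPM in 3 Gzmb-high cells each and had 0 reads in Gzmb-low cells, at least 153-fold and 197-fold higher against a floor of 3 reads over the side.

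Genes of basophils were read because the gate is named for both lineages. Of 15 listed, 12 were measured (median 1.19), 7 were 2-fold higher in Gzmb-high and 1 in Gzmb-low cells (all genes: 28.8% and 16.2%). Beside Mcpt8, Cyp11a1, the steroid-making enzyme, spanned 7.32, 4535 and 11545 CPM and 4.59, 1519 and 7544 CPM, a ratio of 1.41 that was under 2-fold with ERCC scaling. The basophil surface genes Itga2 and Cd200r3 had ratios of 0.15 and -0.34, and Itga2 was at 100 CPM in 4 cells of each side, with a ratio of -0.81 without Gzmb-high BMCP number 53 and 0.68 without Gzmb-low BMCP number 73. Prss34, another basophil protease, was at 100 CPM in 17 of 60 and 9 of 31 cells.

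Of 26 listed cytokine and chemokine genes, 13 were measured, with a median of 1.83. At least 2-fold higher were 10 in Gzmb-high and 2 in Gzmb-low cells (all genes: 28.8% and 16.2%). Without any 1 cell these counts were 7 and 0 (all genes: 16.8% and 7.10%). The chemokine genes Ccl3 and Ccl9 were at 100 CPM in 17 and 14 of 60 Gzmb-high cells and in 0 Gzmb-low cells. Il6 was at 100 CPM in 19 and 0 cells, with 162 against 0.471 pooled CPM. Ccl4 was at that level in 21 Gzmb-high cells and in Gzmb-low BMCP number 40 alone, and without that cell its ratio was 7.59 in place of 2.93 (it was under 2-fold in the first block). Il4 had 150.0 against 66 CPM (1.17), and Ccl2 1344 against 650.3 CPM (1.05), both under 2-fold with TMM or ERCC scaling, with granule genes left out of the totals and in the second block. Immediate early genes answer stimulation and cell handling, and 17 were measured, with a median of 0.74. Of these, 7 were 2-fold higher in Gzmb-high and 1 in Gzmb-low cells (all genes: 28.8% and 16.2%). Jun and Ier3 had ratios of 1.13 and 1.45 and were under 2-fold with ERCC scaling, Jun also with TMM scaling, with granule genes left out of the totals and in the second block.

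**Figure D4:**
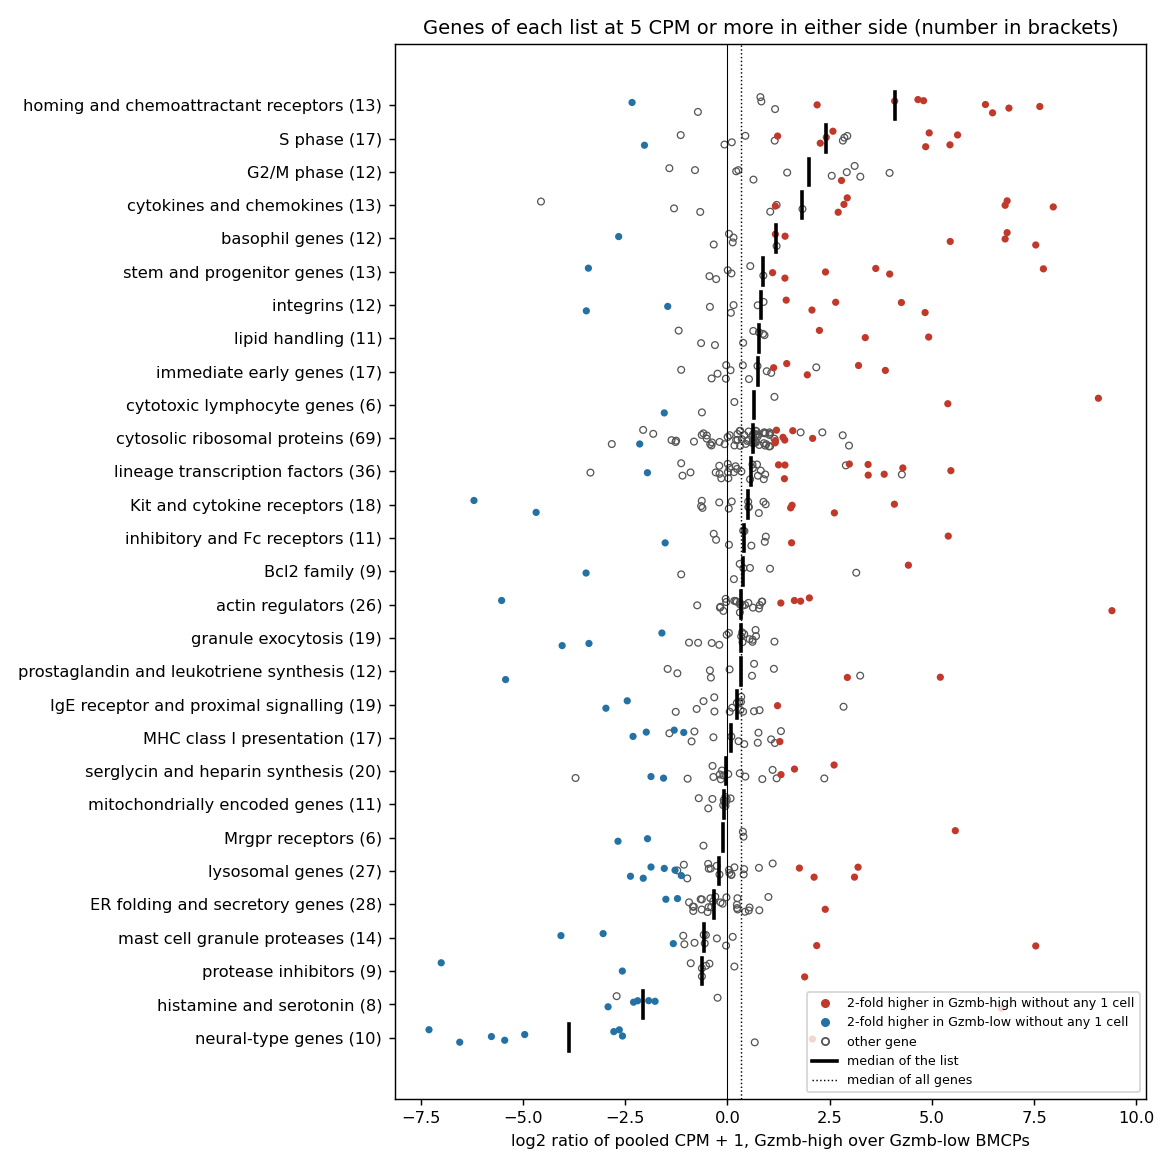
Log2 ratio of pooled CPM + 1, Gzmb-high over Gzmb-low BMCPs, of genes at 5 CPM or more in either side, for lists with at least 6 such genes. Homing receptors have the highest median (4.09) and neural-type genes the lowest (-3.87), and the dotted line is the median of all genes (0.32). The lists were chosen with earlier results of these data known.

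Neural-type genes, named for their adhesion and synaptic products, had the lowest list median at -3.87. The list was chosen with earlier results of these data known, so its median and counts describe the chosen genes only. Of 10 measured of 16 listed, 8 were 2-fold higher in Gzmb-low cells and 1 in Gzmb-high cells (all genes: 16.2% and 28.8%). The counts were the same without any 1 cell (all genes: 7.10% and 16.8%). Gpm6a, a neuronal membrane glycoprotein, was at 100 CPM in 13 of 31 Gzmb-low and 0 of 60 Gzmb-high cells, at 204 against 0.301 pooled CPM. Pcp4l1, Lsamp and Ncam1 were at that level in 10, 8 and 5 Gzmb-low cells and in 0 Gzmb-high cells. Cadm1 is a member of this list. Outside it, Wfdc1, a protease inhibitor, had a like pattern with 11 and 0 cells, and Actr3b, a variant Arp2/3 subunit, had 5 and 0 cells. Gnaz, a G protein subunit, was the neural-type member higher in Gzmb-high cells, at 441 against 104 CPM (2.08).

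Actin regulators had a median of 0.34 over 26 measured members. Of these, 5, Scin among them, were 2-fold higher in Gzmb-high and 1 in Gzmb-low cells (all genes: 28.8% and 16.2%). Coro1a, a leukocyte actin-binding protein, spanned 0, 921 and 4201 CPM and 0, 345 and 1426 CPM, a ratio of 1.64 that was under 2-fold with ERCC scaling. Tmsb4x and Actb had ratios of 0.84 and 0.43.

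Lipid mediator enzymes varied by member. Alox5 and Hpgds, which begin leukotriene synthesis and make prostaglandin D2, had ratios of 0.60 and 0.65. Tbxas1, the thromboxane synthase, was at 100 CPM in 12 Gzmb-high and 0 Gzmb-low cells, and Hpgd, which inactivates prostaglandins, in 0 and 4. Of 12 measured genes of this list, 4 were 2-fold higher in Gzmb-high and 3 in Gzmb-low cells (all genes: 28.8% and 16.2%). The list median was 0.33, beside 0.32 over all genes. Lpcat2, which makes platelet-activating factor, had 445 against 92.7 CPM (2.25), the opposite direction to Pla2g7.

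Lysosomal and antigen presentation genes had members past 2-fold on both sides. Of 27 measured lysosomal genes (median -0.20), 8 were 2-fold higher in Gzmb-low and 5 in Gzmb-high cells (all genes: 16.2% and 28.8%). Hexa, a β-hexosaminidase chain, and Ctsd, cathepsin D, had ratios of -1.28 (under 2-fold in the first block) and -0.98. For MHC class I presentation, 17 genes were measured, with a median of 0.09. Of these, 5 were 2-fold higher in Gzmb-low and 4 in Gzmb-high cells (all genes: 16.2% and 28.8%). H2-K1 had 1196 against 2951 CPM (-1.30), H2-D1 had 3981 against 8351 CPM (-1.07, under 2-fold in the first block) and B2m, their light chain, had a ratio of -0.88. H2 genes share sequence, so single members are uncertain.

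Bcl2, which blocks cell death, was at 100 CPM in 10 of 31 Gzmb-low and 2 of 60 Gzmb-high cells (-3.46, and -4.40 without Gzmb-high BMCP number 79). Bcl2l11, which promotes cell death, was at that level in 0 Gzmb-low and 2 Gzmb-high cells. The Bcl2 family list had 9 measured genes, with a median of 0.39. At least 2-fold higher were 3 in Gzmb-high and 2 in Gzmb-low cells (all genes: 28.8% and 16.2%). Of 17 measured S phase genes (median 2.42), 12 were 2-fold higher in Gzmb-high and 2 in Gzmb-low cells (all genes: 28.8% and 16.2%). Without any 1 cell, 8 and 1 were so (all genes: 16.8% and 7.10%). Rfc2, a replication clamp loader subunit, spanned 12.5, 1371 and 4295 CPM and 0.726, 568 and 1907 CPM (1.23, under 2-fold with TMM or ERCC scaling or with granule genes left out of the totals), and overlaps Lat2. Mcm5, Rrm1 and Tyms, which serve DNA replication and its precursors, were at 100 CPM in 5, 6 and 5 of 60 Gzmb-high cells, in 0 of 31 Gzmb-low cells and in 7, 8 and 6 of 94 mature mast cells. Of 12 measured G2/M genes 7 and 1 passed 2-fold (all genes: 28.8% and 16.2%). Only 1 and 0 did so without any 1 cell (all genes: 16.8% and 7.10%). The G2/M list median of 2.01 was -0.06 with ERCC scaling and -0.04 in the second block. Over 69 measured ribosomal protein members the median ratio was 0.62, with 17 and 7 past 2-fold (all genes: 28.8% and 16.2%). Without any 1 cell the counts were 7 and 1 (all genes: 16.8% and 7.10%). Rps14 had a ratio of 1.17, was under 2-fold with TMM or ERCC scaling, with granule genes left out of the totals, in the first block and with no Cpa3 minimum, and overlaps Ndst1.

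Markers of other blood cells were read as lists. Of the 14 T cell markers, 4 had 0 reads in kept BMCPs, Cd3d, Cd3e and Cd3g among them. The 3 that passed 5 CPM were all at least 2-fold higher in Gzmb-high cells (all genes: 28.8%), with a median log2 ratio of 2.92. The difference held without any 1 cell for 2 of them (all genes: 16.8%). Passing the minimum through the side where a gene is high makes it differ, so these counts describe the listed genes only. The summed CPM of the list ran from 0 to 1569.5 in Gzmb-high and from 0 to 138 in Gzmb-low cells, with medians of 0. Cd4 had 4397 reads in Gzmb-high and 272 in Gzmb-low cells, the most of that list, and Lck had 858 and 0. Of the 14 NK cell markers, Ncr1, Klrb1c, Klrd1, Klrk1 and Eomes were among 9 with 0 reads and 1 passed 5 CPM, with summed ranges of 0 to 182 and 0 to 447 and medians of 0. The Cd3 genes and these 5 NK cell genes were thus at 0 in every kept BMCP, those with Lag3 and Nkg7 included. The 15 B cell markers had medians of 5.71 and 14.8 summed CPM and ranges up to 7444 and 1475, and Ighm had 161 and 146 pooled CPM. Of 14 macrophage, 9 eosinophil, 10 neutrophil and 10 erythroid markers, 2, 2, 0 and 0 passed 5 CPM, and Adgre1, Csf1r and Prg2 had 0 reads. The macrophage list, which holds Ccr2, had summed medians of 0 and 0.942 CPM and highest cells of 2029 and 104 CPM. The part of these markers in other results was not tested.

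As whole profiles, Gzmb-low BMCPs lay among mature mast cells and Gzmb-high BMCPs apart from them. With Gzmb left out, a mean of 75.2% of the 10 nearest neighbours of a Gzmb-low cell were mature mast cells, 19.03% were Gzmb-low and 5.81% Gzmb-high, where group sizes alone give 51.1%, 16.3% and 32.6%. Neighbours of a Gzmb-high cell were 87.5% Gzmb-high, 6% Gzmb-low and 6.5% mature. At least 6 mature neighbours were found for 26 of 31 Gzmb-low cells and 0 of 60 Gzmb-high cells, and 1 Gzmb-low cell, BMCP 40, had 6 or more Gzmb-high neighbours. Components 1 and 2 held 5.37% and 2.53% of the variance, and component 1 had medians of -31.6 in Gzmb-high, 7.70 in Gzmb-low and 19.4 in mature cells. Within blocks the mean mature share around Gzmb-high cells was 20.3% in the first and 16.7% in the second. The cells were split by 1 gene and then described by others of the same cells, so the separation is a description.

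**Figure D5:**
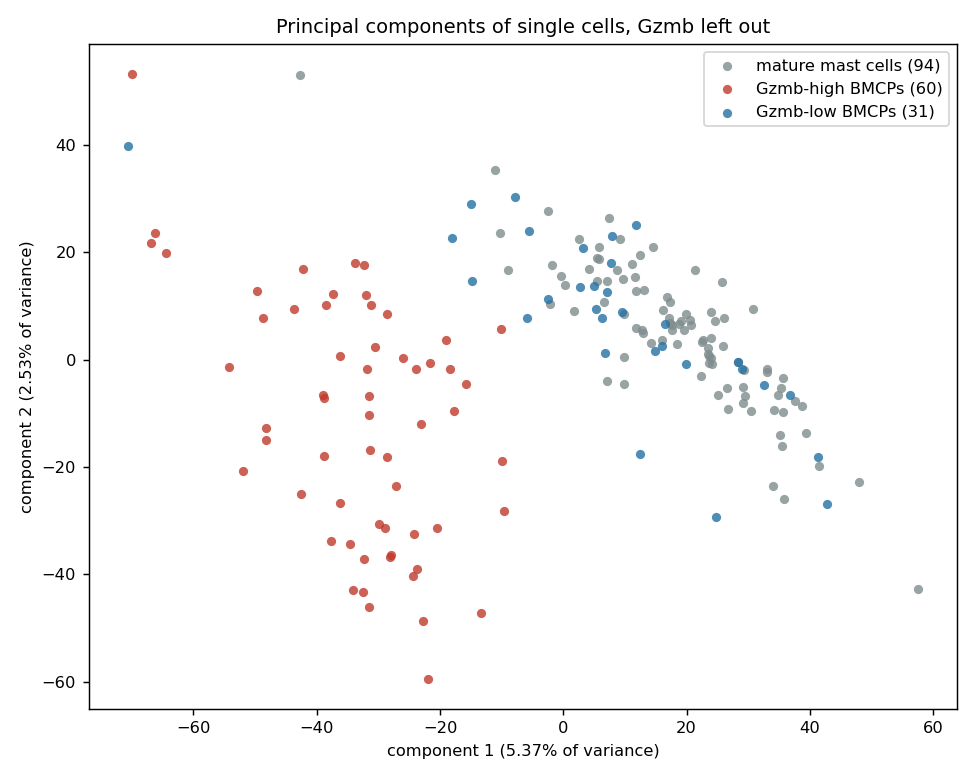
Components 1 and 2 of log2(CPM + 1) over the 1000 most variable genes without Gzmb, 1 point a cell, for 60 Gzmb-high BMCPs, 31 Gzmb-low BMCPs and 94 mature mast cells. Most Gzmb-low cells lie among mature mast cells, BMCP 40 lies at the far left, and the Gzmb-high cells (median -31.6) lie to the left of most other cells.

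Levels of the same genes in mature mast cells, are given side by side for a few genes picked after their values were seen. For Itga4 the pooled levels were 311, 48.8 and 5.63 CPM in Gzmb-high, Gzmb-low and mature cells, with 30 of 60, 5 of 31 and 1 of 94 cells at 100 CPM. Gpm6a had 0.301, 204 and 428 CPM and Il6ra 0.197, 87 and 119.9 CPM, in that order. Mcpt4 had 1715, 14119 and 23089.9 CPM, and Jun 587, 268 and 86.3 CPM. Kit had 1307, 917 and 979.9 CPM and Cma1 38113, 95454 and 93353 CPM. The Gzmb-low level lay between the others for the first 5 of these genes and not for Kit or Cma1. Hdc was highest in Gzmb-low cells, at 2068 against 1735 CPM in mature mast cells. Ctsg, a granule protease, had 1169, 1398 and 414 CPM, so both BMCP sides were above the mature mast cells.

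Genes of the 2 sides were also counted together in single cells. Scin at 100 CPM and Mcpt4 at 1000 CPM were found together in 7 of 60 Gzmb-high cells, Scin alone in 37, Mcpt4 alone in 3 and neither in 13. Scin and Mrgprb1, both at 100 CPM, were together in 7 cells, with 37 having Scin alone, 7 Mrgprb1 alone and 9 neither. Scin and Hdc overlapped more, with 22 cells holding both, 22 Scin alone, 11 Hdc alone and 5 neither. Among Gzmb-low cells 0 held Scin, while 24 held Mcpt4, 28 Mrgprb1 and 30 Hdc at these levels.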

How the data were processed

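The data were read counts per gene in single sorted cells, from 50 bp single-end sequencing on 2 plates after 23 cycles of PCR, per the labels' protocols. The authors deposited whole-number counts, and the submitters' processing notes name GSNAP 2015-09-29, HTSeq 0.5.3p3 and mm10. The row for reads aligned to several places holds 0, and strand setting is not given in the sources used here, so near-identical and overlapping genes are uncertain. The 92 ERCC and 5 summary rows were left out of totals. Of 46078 gene identifiers, 45143 took a symbol from GENCODE M21, and unmatched ones held 0.142% of reads. No doublet caller was run, because each well held 1 sorted cell.

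Since the labels assign no cell to a mouse, counts were summed per side and no test was made. CPM has exact Poisson and shares of cells have Clopper-Pearson intervals, both at 95%. Depth per cell was 344022 to 2091665 endogenous reads. Ratios used 1 CPM added and a minimum of 5 CPM in either side. Python 3.11.15, numpy 2.4.6, scipy 1.17.1, pandas 2.3.3 and scikit-learn 1.9.0 were used, with R 4.3.3 and edgeR 4.0.16 for TMM factors only. Neighbours came from 10 principal components of the 1000 most variable genes. Scripts were tested on simulated counts. The members and all gene lists were chosen with earlier results of these data known. Named genes were the 15 per side with the largest ratios at 50 CPM or more and 10 reads in 50% of that side's cells, plus members of the lists. The ratio of those 15 also had to stay past 2-fold without that side's cell with most reads of the gene. Alternatives changed scaling, minimums, thresholds, blocks and left-out cells.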

Additional observations from a re-analysis of the deposited data

Results flagged for a closer look

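BMCPs 46 and 80, left out of both sides for Cpa3 at 113 and 160.4 CPM, held signal outside the comparison. Cd74, the invariant chain of MHC class II and a gene of B cells, was at 49765 CPM in BMCP 46 and 43636 CPM in BMCP 80. The B cell receptor gene Cd79a was at 4795 and 6527 CPM, and Kit at 1.47 and 3.51 CPM. In the 91 kept BMCPs the median of Cd74 was 0 and the highest cell had 224.8 CPM.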

How the results depend on the processing

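No paired analysis was possible because the cell numbers in the titles only name cells and no cell is tied to a mouse. A value is given here if it moved past a tolerance set by choice (1.5 times for gene counts, 0.05 log2 for medians, 0.1 log2 for reads per ERCC read, 25 genes for genes detected, 1 percentage point for the granule share and 5 for neighbours). The 3027 genes at least 2-fold higher in Gzmb-high cells became 1530 with ERCC scaling, 1749 with ERCC scaling without BMCPs 40 and 55, and 1078 at a 50 CPM minimum. The 1707 genes higher in Gzmb-low cells became 3064, 2693 and 439, and 982 without the cell holding most reads of each gene. The median log2 ratio of all genes, 0.32, was 0.0785 with TMM, -0.45 with ERCC, -0.31 with ERCC without BMCPs 40 and 55, 0.0914 with granule genes left out, 0.0556 with no minimum, 0.47 in the first block and 0.17 without the cell with most reads. The pooled granule share difference, -12.6 percentage points, was -10.9 with no Cpa3 minimum, -10.8 and -14.8 in the first and second blocks and -14.8 as medians over cells. The difference in genes detected, -247, was -217 and -276.5 in the blocks, -161 at 5 reads or more and -310.5 not thinned. The log2 ratio of endogenous reads per ERCC read, -0.63, was -0.43 in the first block and -0.74 from pooled sums. The mature share of neighbours of Gzmb-low cells, 75.2%, was 65.8% with no Cpa3 minimum, 66.9% in the first block and 68.1% in thinned cells, and that of Gzmb-high cells, 6.5%, was 20.3% and 16.7% in the blocks. The G2/M list median reversed, to -0.0607 with ERCC scaling and -0.0412 in the second block. Of 140 named genes past 2-fold, 119 stayed so in the same direction with ERCC scaling and 132 with TMM. Settings without BMCPs 40 and 55 were chosen after seeing the data, and the cause of these shifts was not tested. Depth limits genes of a few reads, and 4 mice pooled without labels give no spread between animals.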

Other observations

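Protein folding, granule exocytosis and mitochondrial genes had few members past 2-fold. Protein folding in the endoplasmic reticulum and secretion had 28 measured genes, with a median log2 ratio of -0.32. Of these, 2 were at least 2-fold higher in Gzmb-high cells and 2 in Gzmb-low cells (all genes: 28.8% and 16.2%). Calr, a folding chaperone, spanned 0, 46.1 and 1433 CPM (lowest, median, highest) in Gzmb-high and 0.707, 415 and 2329 CPM in Gzmb-low cells, a ratio of -1.22. Of 19 measured genes of granule exocytosis (median 0.34), 1 was 2-fold higher in Gzmb-high and 3 in Gzmb-low cells (all genes: 28.8% and 16.2%). Unc13d, which primes granules for release, had a ratio of 1.15 and was under 2-fold without Gzmb-high BMCP number 34, with TMM or ERCC scaling, with granule genes left out of the totals and in the first block. The 11 mitochondrially encoded genes measured had a median of -0.08 and 0 past 2-fold in either direction.

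Surface and secreted regulators had single members far apart. Cd200r1, an inhibitory receptor, had 95.3 against 276 CPM (-1.52), with 12 of 60 and 15 of 31 cells at 100 CPM. Cd274, which encodes PD-L1, had 71.7 against 23.5 CPM (1.57) and 12 and 3 cells, and was under 2-fold with ERCC scaling. Spint2, a membrane protease inhibitor, had 80.2 against 20.9 CPM (1.89), with 17 and 3 cells. Of 11 measured inhibitory and Fc receptors, 2 were 2-fold higher in Gzmb-high and 1 in Gzmb-low cells (all genes: 28.8% and 16.2%). For 9 measured protease inhibitors the counts were 1 and 2. Of 20 listed cytotoxic lymphocyte genes, 6 were measured, Lag3 and Nkg7 included, with a median of 0.66, and 9 had 0 reads in kept BMCPs. Of the 6, 3 were 2-fold higher in Gzmb-high and 1 in Gzmb-low cells (all genes: 28.8% and 16.2%). Without any 1 cell, 2 and 1 were so (all genes: 16.8% and 7.10%).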
